A study of Gallus gallus with 20 samples.

Results

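Transcription factors that build the nephron were measured in adult chicken (Gallus gallus) kidney: SALL1, PAX2, EMX2, TFCP2L1, SIM1, LHX1 and POU3F3. These 7 genes were picked by name from the 19650 named genes of a kidney RNA-seq transcript table, and each of them had a row. The study comprised 20 samples of chicken kidney and testis RNA, of which 19 were small RNA libraries and were not analysed here. All values come from 1 RNA-seq library of total RNA from adult kidney, with no treatment, strain, sex or number of animals given in its labels. With 1 library there is no replicate error, no difference was tested between samples, and likeness of pattern across samples could not be computed. Levels are in TPM, a share of all transcripts in the table that allows for effective transcript length, summed over the transcript rows of a gene. Brackets hold 95% intervals that cover counting error only.

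The nephron and its collecting system arise from intermediate mesoderm, where a duct sends out the ureteric bud and the surrounding mesenchyme condenses into nephrons. PAX2, a paired-domain protein, and LHX1, a LIM homeodomain protein, act at the first steps of that lineage. EMX2, a homeodomain protein, and SALL1, a zinc finger protein, are needed in mouse for the bud to grow and branch. POU3F3, a POU homeodomain protein, is needed in mouse for the loop of Henle and distal tubule, and TFCP2L1, of the CP2 family, for the cells of the collecting duct. SIM1, a basic helix-loop-helix PAS protein, patterns the tubule in zebrafish and is otherwise best known from hypothalamic neurons in mammals. The set therefore mixes homeodomain and paired proteins with SALL1, TFCP2L1 and SIM1, which are of other classes.

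All 7 factors were present well above the detection threshold of 1 TPM with at least 3 reads, which 51.4% of all named genes passed. They also passed 0.5 TPM (56.3% of named genes), 2 TPM (45.8%), 1 TPM with 10 reads (51%) and 3 reads with no TPM threshold (68.4%). SALL1 was the most abundant, at 153 TPM (151 to 156), from 12832 reads. PAX2 followed at 118 TPM (115 to 121), from 6851 reads. Both stood more than 10 times above the median of detected genes, 11.2 TPM, by 13.6 and 10.5 times.

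EMX2 stood at 73.0 TPM (68.9 to 77.2) from 1228 reads. TFCP2L1, with 6972 reads on a much longer transcript, stood at 64.9 TPM (63.4 to 66.4). Reads and levels thus gave different orders: EMX2 was the third by level and the sixth by reads with rows of 1065 to 1629 bases, against 6987 bases for TFCP2L1.

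SIM1 stood at 37.0 TPM (36.0 to 38.0) from 5580 reads on rows of 9682 and 9891 bases. LHX1 stood at 28.2 TPM (26.5 to 30.0) from 1023 reads. POU3F3 was the lowest, at 28.0 TPM (26.5 to 29.6) from 1299 reads. Even so, it lay above 88.1% of all named genes and above 76.9% of detected ones. SALL1 at the other end lay above 98.0% and 96.0%.

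In the order of levels, SALL1 was 1.30-fold (1.26 to 1.34) above PAX2, and PAX2 was 1.61-fold (1.52 to 1.72) above EMX2. EMX2 was 1.12-fold (1.06 to 1.19) above TFCP2L1, the closest of the neighbours that differed beyond counting error. TFCP2L1 was 1.76-fold (1.69 to 1.82) above SIM1, and SIM1 was 1.31-fold (1.22 to 1.40) above LHX1. LHX1 and POU3F3 did not differ beyond counting error, with a ratio of 1.01 (0.927 to 1.09). From top to bottom the levels spanned 5.47-fold (5.16 to 5.79). The places of PAX2, EMX2 and TFCP2L1, and those of LHX1 and POU3F3, depended on how length was handled or on which rows were summed. With reads per annotated base EMX2 fell below TFCP2L1, at a ratio of 0.967. With only the leading transcript of each gene, PAX2 fell below both TFCP2L1 and EMX2, at 38.2 TPM against 64.9 and 45.3 TPM. The ratio of PAX2 to EMX2 was then 0.844. LHX1 fell below POU3F3 in these settings too, at ratios of 0.985 per annotated base and 0.847 with leading transcripts.

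**Figure D1:**
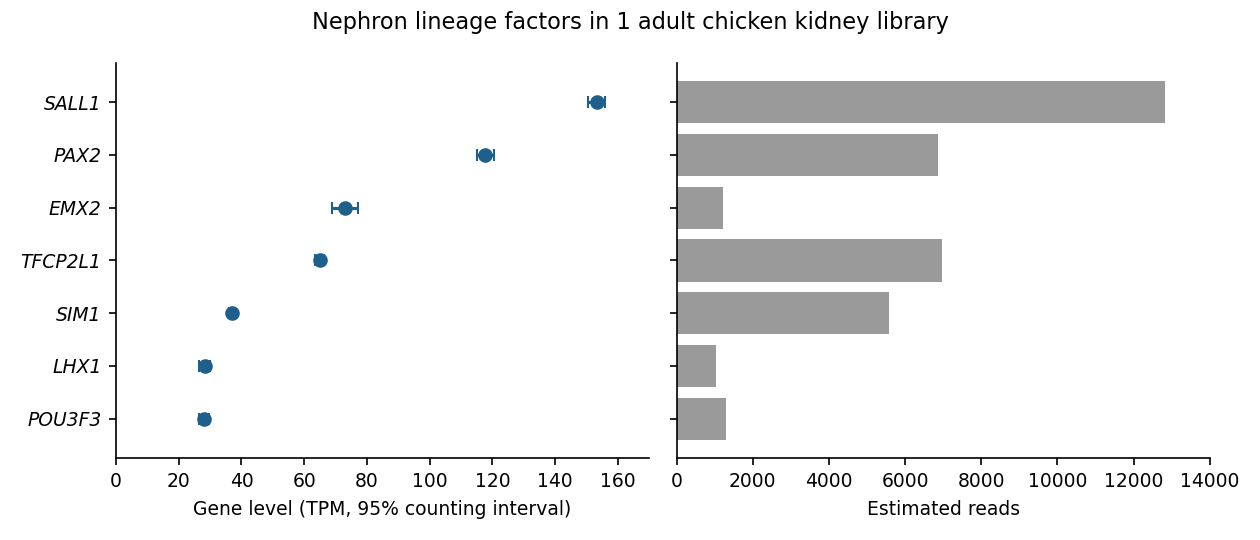
Left, the level of each gene in TPM on a linear axis with its 95% counting interval; right, the estimated reads behind it, for the same 7 genes in the single kidney library. SALL1 leads on both, while EMX2 stands above TFCP2L1 in TPM with 1228 reads on its short rows.

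Together the 7 genes drew 35785 reads, 0.164% of the 21832272 reads of the library, and 502 TPM. Their median was 64.9 TPM, beside 1.21 TPM over all named genes and 6.04 TPM over the 12681 genes with a symbol of their own, of which 70.5% were detected. In a whole-organ library a gene confined to few cells and one at a low level in many cells cannot be told apart, so these levels do not say how much any one segment holds.

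PAX2, the paired-domain gene, was the one with the most transcript rows, and its reads were spread over many of them. Its 21 rows, all with protein-coding identifiers, included 12 with reads, and 6 of them were needed to reach 90% of its TPM. The row of 5130 bases led with 38.2 TPM, 32.5% of the gene. Next came the row of 4934 bases with 30.7 TPM, so that this pair held 58.5% of PAX2 TPM. The leading row was 1.24-fold (1.18 to 1.31) above the next. These intervals leave out the error of splitting reads among rows that share most of their sequence.

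The PAX2 rows fell into 2 length classes with none between 1982 and 4665 bases. Among the 15 long rows 7 had reads, and they held 88.1% (87.3 to 88.9) of the gene's reads but 66.9% of its TPM. Among the 6 short rows, of 1355 to 1982 bases, 5 had reads, and they held 11.9% of reads but 33.1% of TPM. This split by length was made after the lengths were seen. The short rows of 1355, 1982 and 1374 bases stood at 15.7, 9.26 and 8.65 TPM. Of the remaining long rows, that of 5222 bases had 4.31 TPM and that of 4821 bases 3.01 TPM. The share of PAX2 on short rows, 39.0 TPM, thus rests on 815 reads. The interval of the PAX2 level weighs all its reads alike, so it is narrower than the counting error of the summed TPM.

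**Figure D2:**
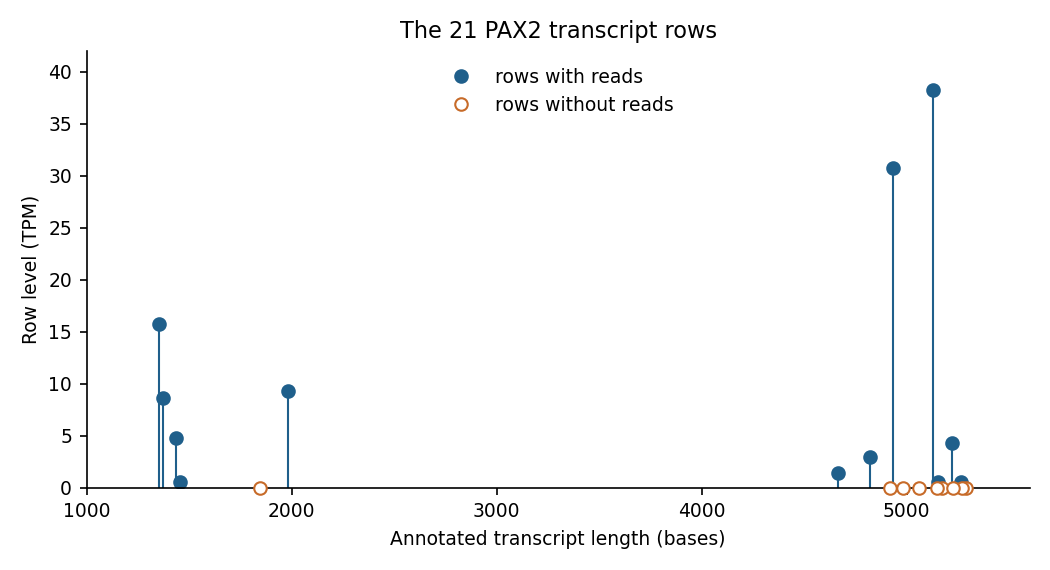
Each point is a PAX2 transcript row, with its annotated length in bases on the horizontal axis and its level in TPM on the vertical axis; open points are rows to which no reads were assigned. The rows of 5130 and 4934 bases stand highest, at 38.2 and 30.7 TPM, and the short group is led by the row of 1355 bases at 15.7 TPM.

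EMX2, the homeodomain gene, was divided between a pair of rows. The row of 1365 bases held 62.0% of its TPM and that of 1065 bases 34.8%, a ratio of 1.78 (1.57 to 2.03). The row of 1629 bases held 3.20%, from 52.4 reads. Effective lengths of the rows of 1365 and 1629 bases were 209.6 bases below the annotated ones, where the usual difference in the table was 198.6 bases.

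LHX1 and SIM1 each had a major and a minor transcript row. For LHX1, the row of 2743 bases held 79.3% of TPM and 88.1% of reads, 3.83-fold (3.17 to 4.68) above the row of 1511 bases in TPM. For SIM1, the row of 9682 bases held 74.2% of TPM, 2.87-fold (2.70 to 3.05) above the row of 9891 bases. With rows of nearly equal length, the SIM1 share was almost the same in reads, at 73.7% (72.6 to 74.9).

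POU3F3 came almost wholly from 1 of its 4 rows. The row of 3200 bases held 94.2% of TPM, from 1255 reads. A 1840-base row, whose RefSeq prefix marks it as non-coding, held 5.38%, from 39.2 reads, and without it POU3F3 stood at 26.5 TPM. The row of 3065 bases held 0.393% and that of 1568 bases had no reads.

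SALL1 and TFCP2L1 had a single row each, of 5490 and 6987 bases, so no isoform share could be given. They lie in the part of the table that also holds the 34512 assembled transcripts without a gene name, where 3653 of 3962 named genes (92.2%) have 1 row. Reads of any named gene on an unnamed assembled transcript are not in its level. Unnamed assembled transcripts held 25.9% of the library's reads, so every gene level here, comparison genes included, may be too low. The summed reads of EMX2 and POU3F3 were within 0.01 of a whole number. Those of SALL1, TFCP2L1, SIM1, PAX2 and LHX1 were 0.398, 0.208, 0.186, 0.138 and 0.045 away from one, so some of their reads were split with rows outside the gene.

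**Figure D3:**
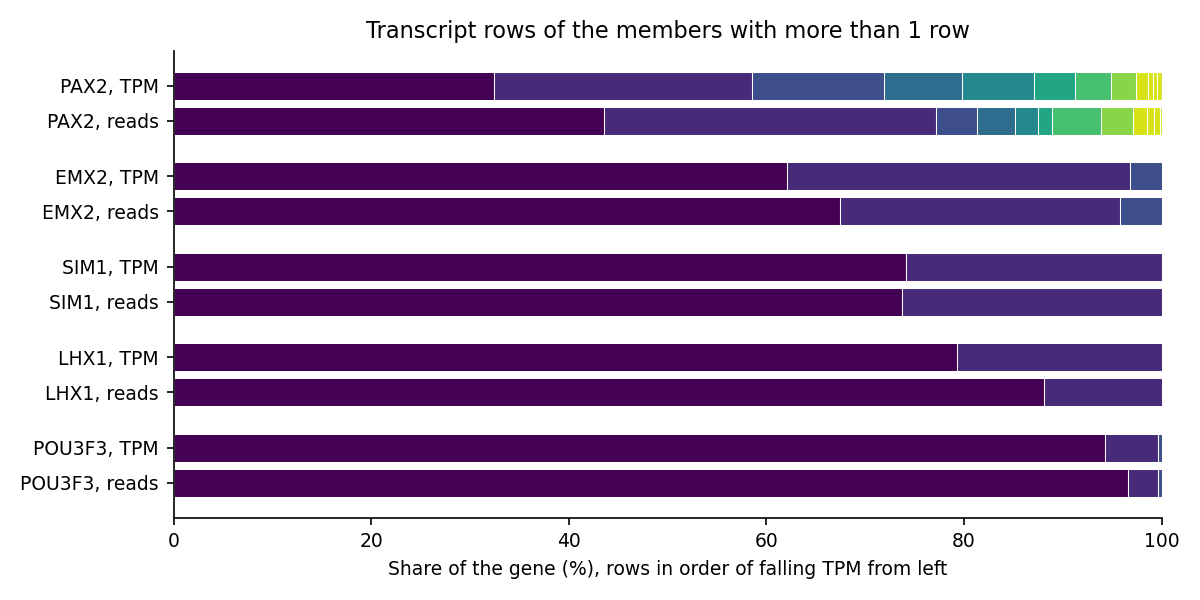
Share of each gene, in percent, held by its transcript rows, for the 5 genes with more than 1 row; the upper bar of each pair divides TPM and the lower bar divides reads, and colours run from the row with the highest TPM at left. POU3F3 is nearly a single block at 94.2% of TPM, whereas the leading PAX2 row holds 32.5%.

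The families of these factors differed in how many other members were on. Of 39 fixed paralogs, 35 had a row and 12 (34.3%) were detected. The shares over all named genes and those with a symbol were 51.4% and 70.5%. The median of the paralogs was 0.0836 TPM. Each of the 7 genes was the highest measured in its family except TFCP2L1, and both EMX2 and TFCP2L1 were within counting error of a paralog.

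PAX2 was the one PAX gene detected among those measured. It held 99.9% of the summed TPM of 8 PAX genes. PAX9 had 2 reads, PAX3 and PAX5 had 1 each, and PAX1, PAX4, PAX6 and PAX7 had none. PAX8, the close relative that acts with PAX2 in the mammalian kidney, was not analysed here.

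EMX2, by contrast, was matched by its paralog. EMX1 stood at 68.5 TPM (65.0 to 72.0) from 1498 reads, and the ratio of EMX2 to EMX1 was 1.07 (0.987 to 1.15), within counting error of 1. EMX1 had more reads than EMX2, on a single row, and the leading EMX2 row alone, at 45.3 TPM, stood below it. EMX2 itself lay above 95.7% of all named genes.

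For LHX1, 2 of 11 LIM homeobox relatives were detected. LMX1B, a podocyte regulator in mammals, stood at 8.69 TPM (7.44 to 10.1), so LHX1 was 3.25-fold (2.76 to 3.84) above it. LHX6 stood at 1.35 TPM (1.07 to 1.69). LHX8, ISL2 and LHX2 had 16, 8 and 7 reads, LHX5, LHX9, LMX1A and ISL1 had 1 each, and LHX3 and LHX4 had none.

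Both SIM genes were on. SIM1 was 2.41-fold (2.28 to 2.54) above SIM2, which stood at 15.4 TPM (14.7 to 16.1). Of the neuronal PAS genes, NPAS3 stood at 1.16 TPM (0.932 to 1.42), NPAS2 at 0.543 TPM and NPAS4 at 0.0943 TPM.

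Among POU genes of classes 3 and 4, POU3F3 held 91.2% of TPM. POU3F4 was the other one detected, at 2.68 TPM (2.22 to 3.20), 10.5-fold (8.67 to 12.7) below POU3F3. POU3F2 had 1 read, and POU3F1, POU4F1, POU4F2 and POU4F3 had none.

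In the CP2 and grainyhead family all 4 measured relatives of TFCP2L1 were detected. UBP1, a broadly expressed CP2 factor, stood at 65.3 TPM (63.3 to 67.4), and the ratio of TFCP2L1 to UBP1 was 0.994 (0.956 to 1.03). TFCP2 stood at 20.6 TPM, the epithelial factor GRHL2 at 20.5 TPM and GRHL1 at 3.71 TPM. TFCP2L1 made up 37.1% of the family's TPM, the smallest share that any of the 7 genes held.

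SALL1 made up 87.3% of the TPM of the SALL genes measured. It was 7.74-fold (7.39 to 8.11) above SALL3, at 19.8 TPM. SALL4, known from embryonic stem cells and germ cells, stood at 2.49 TPM (2.15 to 2.86).

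**Figure D4:**
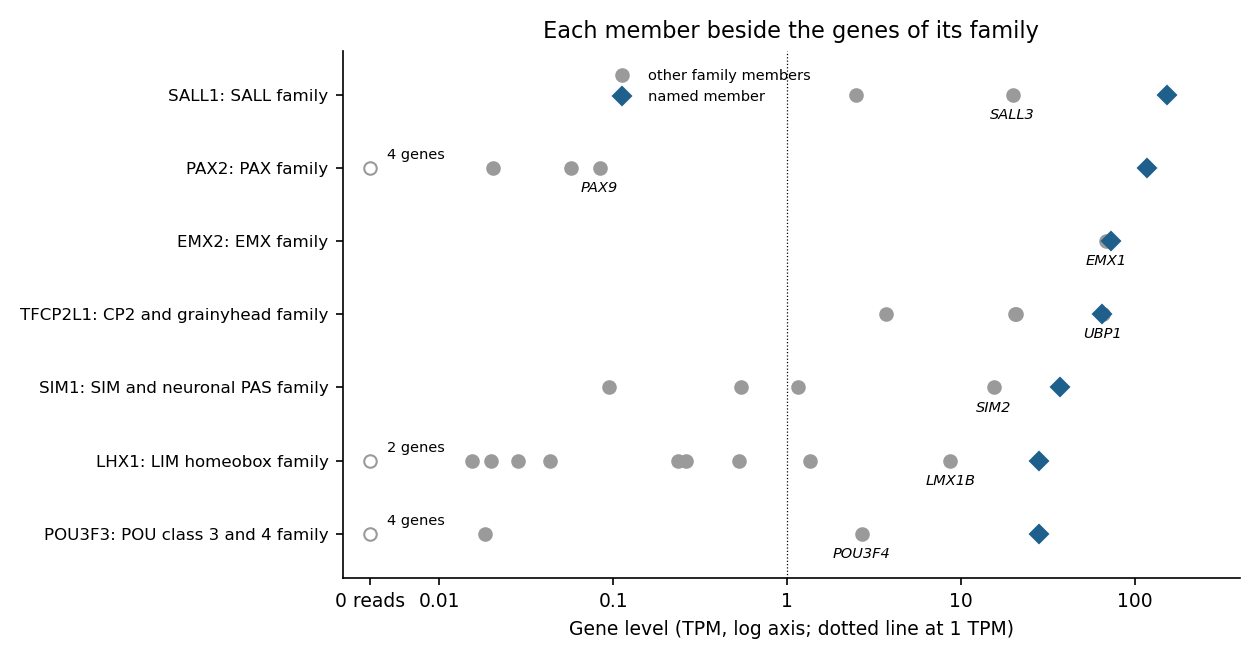
Level in TPM on a log axis for each of the 7 genes (diamonds) and the other measured members of its family (grey circles), with genes without reads as open circles at the left edge and their number; the highest paralog is named. PAX2 stands alone above 1 TPM in its family, while EMX1 and UBP1 lie under or beside the diamonds of EMX2 and TFCP2L1.

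Other regulators of the nephron lineage were set beside the 7 genes. Of 37 on the list, 33 had a row and 28 (84.8%) were detected, beside 51.4% of all named genes and 70.5% of those with a symbol. Their median was 17.2 TPM. The tubule factors HNF4A and HNF4G stood at 157 and 143 TPM. The nuclear receptor ESRRG had 135 TPM, and MECOM, a zinc finger factor, had 114 TPM. HNF4A was the one regulator above SALL1, and its ratio to SALL1 of 1.03 (0.998 to 1.06) was within counting error of 1. PAX2 ranked the fifth of these 40 genes, and LHX1 and POU3F3 ranked 16 and 17.

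Other regulators that act early in the kidney were spread over the same list. Apart from SIX2 and MEOX1, those named next were singled out after their values were seen. No reads were assigned to SIX2, which maintains nephron progenitors in mouse, or to MEOX1. EYA1 stood at 0.457 TPM and FOXD1, of the embryonic stroma, at 0.484 TPM. OSR1, an early marker of intermediate mesoderm, stood at 1.66 TPM, while its relative OSR2 stood at 39.0 TPM. EYA3 stood at 18.8 TPM, SIX4 at 11.1 TPM and HOXA11 at 6.43 TPM.

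**Figure D5:**
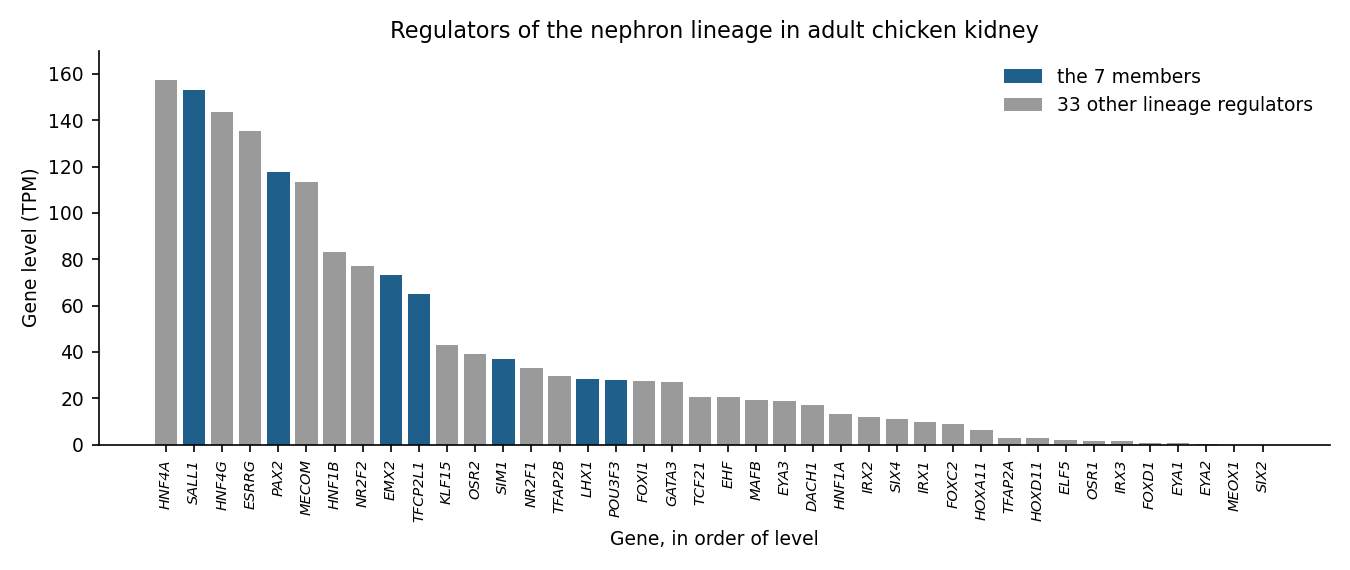
Level in TPM on a linear axis of 40 regulators of the nephron lineage in order, with the 7 genes in blue and 33 others in grey. SALL1 is second after HNF4A, all 7 blue bars lie within the first 17, and SIX2 and MEOX1 are at 0.

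The measured partners of these factors were all present. Of 36 fixed, 25 had a row and all 25 were detected, beside 51.4% of all named genes and 70.5% of those with a symbol. Their median was 15.8 TPM, with a range of 3.57 to 66.9 TPM. Among LHX1 cofactors, the LIM-binding protein LDB2 stood at 14.5 TPM, and LHX1 was 1.95-fold (1.75 to 2.18) above it. LDB1, on the same list of cofactors, was not analysed here, so LDB2 alone does not give the cofactor level. The single-stranded DNA-binding proteins SSBP3, SSBP4 and SSBP2, which act with LIM-binding proteins, had 24.9, 23.5 and 15.2 TPM. RLIM, which marks LIM-binding proteins for degradation, had 11.3 TPM. LMO4, a LIM-only protein that competes for the same cofactor, was the highest at 66.9 TPM (63.4 to 70.4).

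PAX2 recruits a histone H3 lysine methyltransferase complex through an adaptor that was not analysed here. Its enzymes KMT2C and KMT2D stood at 32.4 and 21.1 TPM and the demethylase KDM6A at 30.8 TPM. The shared subunits WDR5, RBBP5, DPY30 and ASH2L had 32.4, 24.5, 15.8 and 10.3 TPM, and PAGR1 had 3.57 TPM. Of the Groucho corepressors, TLE1 stood at 14.5 TPM and TLE4, matched by its RefSeq transcript to the row name TLE4Z1, at 12.2 TPM.

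SIM1 works as a dimer with an ARNT protein. ARNT stood at 24.7 TPM (23.2 to 26.3), and SIM1 was 1.497-fold (1.397 to 1.604) above it. ARNT2, the partner of SIM1 in mouse hypothalamus, was not analysed here. The chaperone HSP90AB1 stood at 4.44 TPM from 172 reads on its 1 named row. Reads it may have on unnamed transcripts are not counted.

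SALL1 represses through the NuRD histone deacetylase complex, of which 7 of 13 fixed subunits had a row. The histone chaperone RBBP4 stood at 52.0 TPM, and SALL1 was 2.94-fold (2.80 to 3.09) above it. The deacetylases HDAC2 and HDAC1 had 23.1 and 19.4 TPM. MTA2 had 14.9 TPM, MBD3 5.99 TPM, MTA3 5.20 TPM and MTA1 4.47 TPM.

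Genes placed downstream of these factors, mainly from mouse, were read in 3 fixed groups. Of 31 with a row, 25 (80.6%) were detected, beside 51.4% of all named genes and 70.5% of those with a symbol. Their median was 27.5 TPM. In the ureteric bud induction group, tied to PAX2 and SALL1, 5 of 9 (55.6%) were detected, and the median was 1.09 TPM. That share is near the 51.4% of all named genes and below the 70.5% of those with a symbol. That count rests on the threshold: 2 of 9 reached 2 TPM and 8 of 9 had at least 3 reads. The growth factor GDNF and its receptor RET stood at 0.211 and 0.391 TPM, and FGF8 had no reads. GFRA1, the coreceptor for GDNF, stood apart at 41.5 TPM (39.7 to 43.5), 106-fold (70.6 to 168) above RET. SPRY1, an inhibitor of RET signalling, stood at 27.5 TPM. WNT4 had 1.94 TPM, KIF26B 1.71 TPM, WNT11 1.09 TPM and WNT9B 0.227 TPM.

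In the collecting duct group tied to TFCP2L1, 12 of 13 (92.3%) were detected, and the median was 38.3 TPM. The shares over all named genes and those with a symbol were 51.4% and 70.5%. The water channel AQP2 led at 294 TPM (289 to 299), and TFCP2L1 stood at 0.221 (0.214 to 0.227) of its level. Proton pump subunits ATP6V0D2, ATP6V1B2 and ATP6V1C2 had 82.2, 45.9 and 19.9 TPM. Sodium channel subunits SCNN1A, SCNN1G and SCNN1B had 79.8, 38.3 and 34.8 TPM. The Notch ligand JAG1 stood at 67.6 TPM, the water channel AQP3 at 38.8 TPM and the anion exchanger SLC4A1, which red blood cells also make, at 37.2 TPM. AQP4 and KIT stood at 4.49 and 4.02 TPM, and the receptor OXGR1 had 3 reads.

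In the loop of Henle and distal group tied to POU3F3, 8 of 9 (88.9%) were detected. The shares over all named genes and those with a symbol were 51.4% and 70.5%. The median of the group was 64.1 TPM. CALB1, a calcium-binding protein, stood at 366 TPM and CLDN10, a paracellular channel, at 329 TPM. The salt transporter SLC12A1 stood at 250.5 TPM, and POU3F3 at 0.112 (0.106 to 0.118) of it. SLC12A3 and the potassium channel KCNJ1 had 64.3 and 64.1 TPM, NOS1 8.74 TPM, PTGER3 8.37 TPM and CLDN19 4.94 TPM. UMOD, which needs Pou3f3 in mouse, had no reads on its named rows.

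The tissue label was checked with marker genes, beside a share detected of 51.4% over all named genes and 70.5% over those with a symbol. All measured proximal tubule (6 of 10 fixed), podocyte (6 of 8) and collecting duct (6 of 7) markers were detected, with medians of 1350 TPM, 20.5 TPM and 81.0 TPM. Since POU3F3, SIM1, EMX2, LHX1 and PAX2 are also genes of the nervous system, neuronal markers were read as well: 1 of 9 was detected and their summed level was 3.17 TPM. The one detected was SYT1 at 2.59 TPM. NEFL had 11 reads, SNAP25 5, RBFOX3 2 and NEFM 1, and STMN2, SLC17A6, GAD1 and GAD2 were at 0. Adrenal markers summed to 6.13 TPM, with 2 of 6 detected, CYP17A1 at 4.68 TPM and STAR at 1.34 TPM. CYP11A1 had 2 reads and DBH 1, and TH and MC2R were at 0. Oviduct markers summed to 0.708 TPM with none of 5 detected, and testis germ cell markers to 9.64 TPM with 3 of 4 detected, led by SYCP3 at 6.04 TPM. Endothelial, stromal and leukocyte markers were all detected (6, 5 and 6 genes), with summed levels of 168, 170 and 254 TPM.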

How the data were processed

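RNA-seq of adult chicken kidney was made from total RNA by a TruSeq protocol, per the labels' protocols. Abundance came from Salmon on galGal6, per the submitters' processing notes. Salmon's version, its strand setting and the origin of the transcript set were not stated. Without a known strand setting, reads from transcript sequence shared by overlapping genes on opposite strands cannot be assigned with certainty. The TPM values, as deposited, are scaled over all 79570 rows to a sum of 1000000. The deposited estimated counts sum to 21832272, and Salmon divides a read among the rows it could come from. Lengths, annotated and effective, are in the table, which has no coordinates.

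TPM and estimated reads were summed over the 34 rows whose symbol is one of the 7 genes. A listed gene without its own row was sought by the RefSeq identifiers that the GRCg7b gene table pairs with it. That table gave names, gene types, transcript identifiers and the positions used for gene order and overlaps. Isoform shares hold for the transcript set as deposited. The GRCg7b table holds 14 of the 21 PAX2 rows and neither LHX1 row, and it lists 5 transcripts for SALL1. Reads were rounded for exact Poisson, Clopper-Pearson and conditional binomial intervals (scipy 1.17.1). Such intervals cover counting error alone, since the reads carry no molecular identifiers and are not independent molecules. Intervals of gene levels and ratios scale the total reads to the summed TPM, as if each read of a gene carried equal TPM. Where the rows of a gene differ in length, as for PAX2, they understate the counting error. No p-value was computed. The genes and lists were chosen with earlier results of these data known. The naming rule took every member, paralog, partner and downstream gene with a row, and the 4 highest members of other lists; marker lists and lineage regulators are given partly as counts, and 1 lineage regulator is not reported here. Gene sums, Poisson intervals and ratio intervals were run on counts simulated with Poisson error, the error that they assume. That run could not show error from splitting reads among rows, and it left out the intervals of shares. Alternatives covered the rows summed, length, scaling and detection threshold.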

Additional observations from a re-analysis of the deposited data

How the results depend on the processing

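All 7 genes were detected under every alternative run: 5 ways of setting levels, thresholds of 0.5 and 2 TPM, a minimum of 10 reads, and 3 reads with no TPM threshold. The share of all named genes detected ranged from 45.8% to 68.4% over those 4 thresholds. The median of the 7 genes ranged from 38.2 to 108 TPM. Scaling TPM over named rows only raised each gene by 1.55 times, to 238 (SALL1), 183 (PAX2), 113 (EMX2), 101 (TFCP2L1), 57.4 (SIM1), 43.8 (LHX1) and 43.5 TPM (POU3F3). Leaving out rows under 300 bases gave 237, 182, 113, 100.5, 57.2, 43.7 and 43.4 TPM in the same order of genes, and annotated length gave 261, 193, 108, 111, 64.0, 45.7 and 46.4 TPM. These settings change the scale of all genes; with annotated length the median of detected genes rose by 1.59 times. The leading row alone left SALL1 and TFCP2L1 as they were and gave 38.2 (PAX2), 45.3 (EMX2), 27.4 (SIM1), 22.4 (LHX1) and 26.4 TPM (POU3F3). Protein-coding rows alone lowered POU3F3 to 26.5 TPM. The other 6 genes have only protein-coding rows, so their levels could not change. Ranks moved more: among genes with protein-coding rows, the share of genes below fell for all 7, to 83.0% for POU3F3 and 97.3% for SALL1. With the leading row alone it fell to 92.2% for PAX2, 93.4% for EMX2, 89.2% for SIM1 and 86.9% for LHX1. It rose slightly for SALL1, TFCP2L1 and POU3F3.

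The ratio of PAX2 to EMX2 turned to 0.844 with the leading row of each, where PAX2 loses most of its rows, and was 1.79 per annotated base. The ratio of EMX2 to TFCP2L1 turned to 0.967 per annotated base and 0.697 with the leading rows; EMX2 has the shortest rows, for which effective and annotated length differ most. Per annotated base, SALL1 to PAX2 became 1.35 and SIM1 to LHX1 1.40. With leading rows, SALL1 to PAX2 became 4.01, TFCP2L1 to SIM1 2.37, SIM1 to LHX1 1.22 and LHX1 to POU3F3 0.847. Ratios over protein-coding rows were an alternative chosen after seeing the data. Only LHX1 to POU3F3 could change, since POU3F3 alone has a non-coding row. It became 1.06, within its interval. Taken as a share of reads, the leading row held 43.5% of PAX2, 67.4% of EMX2, 88.1% of LHX1 and 96.6% of POU3F3. Of 125 medians of other lists under the alternatives, 119 stayed within the list's interval or range. That interval is taken from the ordered levels of the list's genes, with the full range for fewer than 6 genes. It does not measure counting error and can be wide, as for the PAX genes (0 to 118 TPM). The count of 119 therefore says little about stability. Counts detected moved by over 1.5 times in some lists. With 3 reads and no TPM threshold, the LIM homeobox family went from 3 to 6, SIM and neuronal PAS genes from 3 to 5, ureteric bud induction genes from 5 to 8, neuronal markers from 1 to 3 and oviduct markers from 0 to 1. At 2 TPM, ureteric bud induction genes went to 2 and adrenal markers from 2 to 1. No paired analysis was possible because only 1 library was analysed. Without replicates, the counting intervals do not bound differences between animals.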

Other observations

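Genes that neighbour the 7 factors in the GRCg7b gene table were looked up after the other values were seen, taking overlapping genes and the nearest on each side. Several of those with a row carry the opposite strand sign in its name, which is the annotated strand; the strand of the reads is not known. The neighbours of PAX2, and 1 each of SALL1, EMX2 and TFCP2L1, had no row and were not analysed here. Among those of PAX2 is the long non-coding RNA LOC101749795, which overlaps PAX2 in that assembly. Beside POU3F3, the long non-coding RNA LOC101750998 stood at 13.1 TPM (12.5 to 13.7) from 1769 reads, more reads than POU3F3 itself drew. On its other side the protein-coding gene LOC107051973 stood at 24.0 TPM (21.8 to 26.5). Both carry the opposite strand sign to POU3F3, which stood at 28.0 TPM.

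LOC101747620, a neighbour of EMX2 annotated on the opposite strand, stood at 5.07 TPM (4.15 to 6.14), while LOC107053726, which overlaps EMX2 in that assembly, had no reads. LOC112530064 overlaps LHX1 there, is annotated on the opposite strand and stood at 4.16 TPM (3.31 to 5.16). The nearest genes on either side of LHX1 were AATF, on the same strand at 9.40 TPM, and LOC107054811, on the opposite strand at 2.08 TPM. SIM1 lay between ASCC3, on the same strand at 18.6 TPM, and PRDM13, on the opposite strand with no reads. LOC100858601, beside SALL1, stood at 6.56 TPM, and LOC112532811, beside TFCP2L1, had 1 read. Whether reads of overlapping neighbours contribute to the levels of LHX1, EMX2 or PAX2 was not tested.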
